A study of Rattus norvegicus with 6 samples.

Results

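The genes described here are the nuclear genes of mitochondrial complex I and of its assembly, taken as every protein-coding row of the deposited gene table whose symbol begins with Nduf. There were 47 such rows with 45 distinct symbols among 34170 rows, of which 22250 were protein-coding. By name they were divided into 7 core subunits, 30 rows of accessory subunits, 8 assembly factors (symbols beginning with Ndufaf), and Ndufa4 and Ndufa4l2, which are no longer counted as parts of the enzyme. The rows lay on 17 chromosomes.

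Complex I, the NADH:ubiquinone oxidoreductase, is the entry point of the respiratory chain. Its matrix arm takes electrons from NADH and passes them over a flavin and a row of iron-sulfur clusters to ubiquinone, and its membrane arm pumps protons. The core subunits carry out this chemistry. Those of the matrix arm are encoded in the nucleus and those of the membrane arm in mitochondrial DNA, while accessory subunits surround and stabilise the core. In the retina, the inner segments of photoreceptors are packed with mitochondria, and the tissue consumes much oxygen.

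The libraries were made from poly-A RNA of the retina of Sprague-Dawley rats, which are outbred; all were male with a starting weight of 100 g. The control group (labelled WT) was 3 rats that received citrate vehicle by intraperitoneal injection on 5 days, also after 12 h of fasting. The diabetic group was 3 rats that received streptozotocin, a toxin of the insulin-producing beta cells, at 60 mg/kg on 5 days after 12 h of fasting, and rats above 16.7 mmol/L fasting glucose 1 week after the last injection counted as diabetic. No genetic change separates the groups, the model is one of chemical beta cell loss, and neither the rats' age nor the time of tissue collection was found in the labels. The labels give a separate body weight for each sample, from 103.4 to 110.5 g in control and from 100.4 to 104 g in diabetic rats, so each library is taken as 1 rat and p-values rest on the spread between these rats.

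Values are FPKM, fragments per kilobase of gene length and scaled to a size of the library. This size was not the plain sum of the library's fragments. It was 1.01, 0.97 and 0.98 times that sum in the control rats 1, 2 and 3. In the diabetic rats 1, 2 and 3 it was 1.04, 1.04 and 0.99 times the sum. The fragments behind the values summed to between 12417686 and 19115426 per library, and 3 fragments in a gene of 1 kb were worth between 0.158 and 0.248 FPKM. Photoreceptor markers were abundant in every library, as fits a retina. The 4 photoreceptor markers Gnat1, Rcvrn, Nrl and Crx summed to between 9261 and 10233 FPKM in control and to between 6734 and 7539 FPKM in diabetic libraries, without overlap. Gnat1, Rcvrn and Nrl did not overlap either and were lower in diabetic libraries, while Crx overlapped, with 586.6, 659.1 and 738.7 FPKM in the control rats, against 650.6, 699.7 and 756.4 FPKM in the diabetic rats. The 4 lens markers summed to 222.1 FPKM in control 3, while elsewhere their sum ran from 6.12 to 27.1 FPKM, with Mip at 0 in control 1 and diabetic 2. The 3 cornea markers summed to 10.9 FPKM in control 2, 13.3 in diabetic 1 and at most 4.15 in the others. The 3 pigment epithelium markers summed to 77.6, 65.6 and 34.7 FPKM in the control rats, against 82.1, 33.9 and 35.2 FPKM in the diabetic rats. For the 3 bipolar and Muller cell markers the sums were 974, 857 and 956 FPKM in control, against 914, 781 and 650 FPKM. Both of these sums overlapped between the groups.

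The promoters of these genes give a first view of what the set shares. RefSeq promoters (build GRCr8, from 250 bases before to 50 after the start site) were at hand for 40 of the 45 symbols. These windows were searched on both strands for 4 short motifs of factors known to act on respiratory genes. These were GCGC and TGCGC with 1 free base between them for the nuclear respiratory factor NRF1, CCGGAAG for ETS proteins such as GABPA, AAGATGG for YY1 and AAGGTCA for the nuclear receptor ESRRA. The NRF1 letters were in 8 of the 40 promoters, or 20.0%, against 5.67% of 21851 protein-coding promoters. The stretches around these matches, 5′ to 3′ on the gene's strand, let the motif be seen in each gene, with the matched letters (of either strand) in capitals.
Ndufa11: ctgtGCGCATGCGCATGCGCacaggccatg
Ndufa12: ctccagctctGCGCGTGCGCagagcgacct
Ndufa5: cgtatgagctGCGCAGGCGCaaatctctcc
Ndufaf4: gcagtagtccGCGCATGCGCccctgtggaa
Ndufaf5: agtccctttgGCGCATGCGCacaatagaaa
Ndufb4: ctctgtgcgcGCGCAGGCGCacttcctgag
Ndufs5: gccgctggctGCGCAGGCGCaaaccgctct
Ndufv3: cagaatgcgcGCGCAAGCGCttggccccac
The match in Ndufa11 holds 2 overlapping copies. All 9 matches began between base -158 and base 3, counted from the start site.

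AAGATGG was in 9 of 40 promoters (22.5%), against 7.29% of all, and in all 9 it lay close to the start site. Each match began between base -1 and base 27. In the last 51 bases of the window, which start at base -1, 2.5% of 21851 protein-coding promoters held AAGATGG on either strand. The windows are set out on the match, in capitals, to show the bases around it.
Ndufa2: tttgctagcaAAGATGGcggccgcaag
Ndufa3: gtccaagaccAAGATGGctgctagtaa
Ndufa4l2: acactggaacAAGATGGcaggaaccag
Ndufa6: cttccttagcAAGATGGcggccgcggc
Ndufa9: attgtgggagAAGATGGcggccgccgt
Ndufaf8: ggcagggcccAAGATGGcggcgcccac
Ndufb8: ggagaaggtgAAGATGGcggcgtcccg
Ndufs4: tgcccacaggAAGATGGcggcggtctc
Ndufs7: ggccgaggccAAGATGGcggcgctggc
Each has the motif on the gene's own strand, and most continue with CGG. The letters contain ATG, so a match at such a place may also be a start codon, which this search does not separate. CCGGAAG was in 9 of 40 promoters (22.5%, against 10.7% of all) and AAGGTCA in 3, where 3.79% of all promoters held it. A match is a description of letters and not a binding site.

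The differences between the groups can be set beside these letters. The 8 genes with the NRF1 letters had a median log2 difference (diabetic minus control, on log2(FPKM + 0.5)) of -0.31, and 31 genes without them had -0.34. With AAGATGG the median was -0.25 over 9 genes, and without it -0.34 over 30 genes. These are side-by-side values without a test. Ndufb10, the subunit gene with the smallest p in that comparison, held none of the 4 motifs in its promoter (chr10:14255917-14256216, minus strand), which reads as follows.
Ndufb10: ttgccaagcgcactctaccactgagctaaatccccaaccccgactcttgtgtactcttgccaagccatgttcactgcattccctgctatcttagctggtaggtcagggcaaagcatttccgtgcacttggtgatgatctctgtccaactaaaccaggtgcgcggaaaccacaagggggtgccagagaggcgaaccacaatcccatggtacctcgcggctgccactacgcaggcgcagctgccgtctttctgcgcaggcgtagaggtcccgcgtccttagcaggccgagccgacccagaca

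The comparison of diabetic with control retina asked which messenger RNAs differ in diabetes. Nearly all complex I genes had a lower mean in diabetic retina, by modest amounts. Of 46 Nduf rows that passed the filter (mean of at least 0.5 FPKM), 43 had a negative log2 difference, with a median of -0.33. Over all 16363 genes tested, 8171 were negative and the median was 0.00. Among other genes at high levels, where most Nduf genes lie, the negative share was larger, as given below by level. No Nduf gene passed a Benjamini-Hochberg adjusted p of 0.05 in limma (smallest adjusted p = 0.128), and of all genes tested 0 passed (0%). At an unadjusted p below 0.05, 30 of the 46 (65.2%) were lower and 0 higher, where 10.7% of all genes tested were lower at that p and 9.15% higher. In 28 of the 46 all diabetic values lay below all control values, where this held for 13.6% of all genes tested; in 0 they lay above, where 12.7% did. By voom on rebuilt fragments 0 Nduf genes and 2 genes in all passed, and the Nduf median was -0.34. At an unadjusted p below 0.05 in voom, 30 Nduf genes were lower, where 10.6% of all genes tested were. The 47th row, Ndufa10l1 on chromosome 6, was listed at 0 in every library and was not tested.

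**Figure D1:**
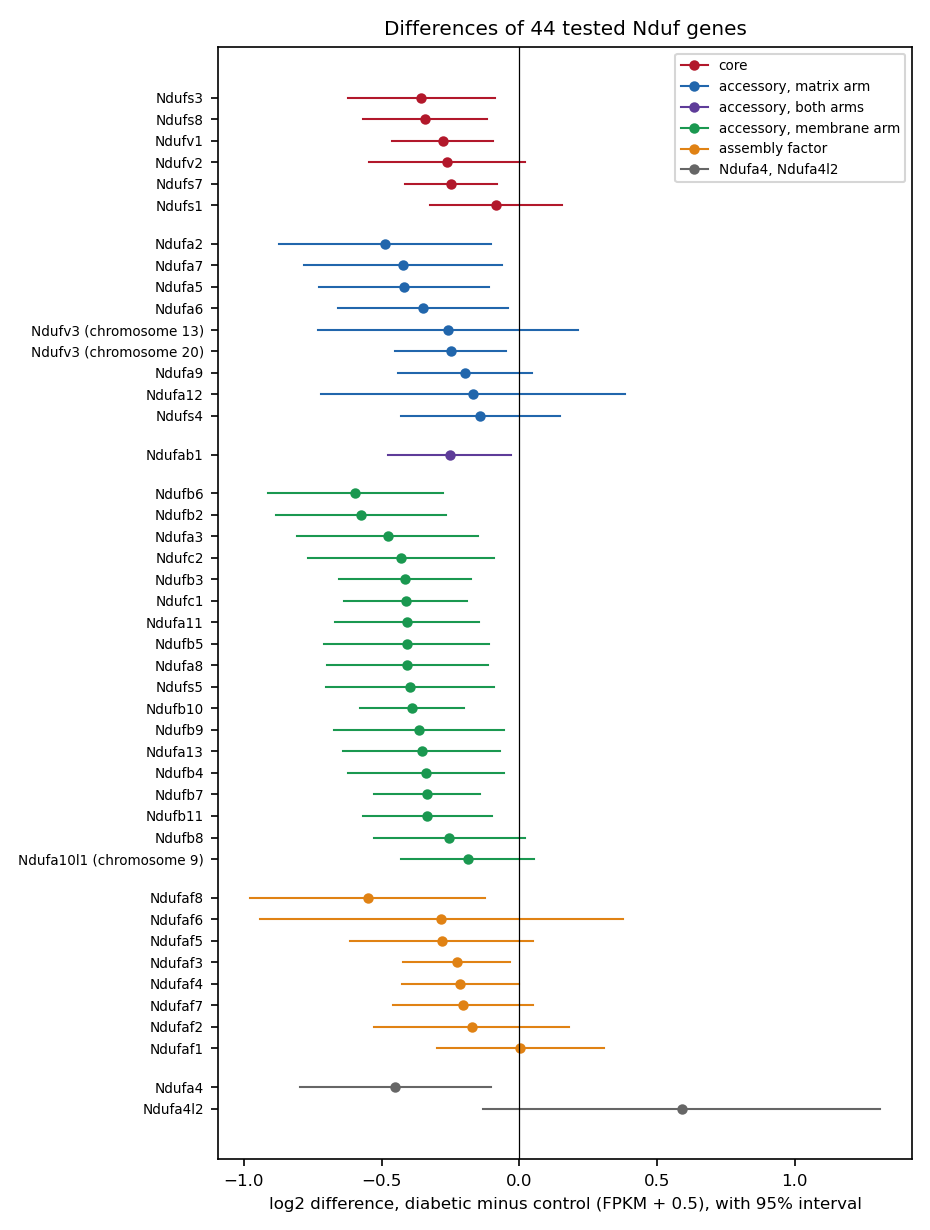
Log2 difference of tested Nduf genes (x axis, diabetic minus control, on log2(FPKM + 0.5)) with its 95% interval from limma, by group of genes (colour), with 3 libraries per group of rats. Ndufa1, whose interval runs from -2.03 to 4.91, and 1 gene not reported here are left out. Points lie left of 0 for all shown but Ndufaf1 and Ndufa4l2.

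The 7 nuclear core subunits, which hold the flavin and the iron-sulfur clusters, all had negative differences, with a median of -0.26. At an unadjusted p below 0.05, 4 of the 7 (57.1%) were lower, where 10.7% of all genes tested were. In the same number all diabetic values lay below all control values, where this held for 13.6% of all genes tested. Ndufs8, an iron-sulfur subunit near the quinone site, measured 103.6, 111.4 and 90.9 FPKM in the control rats 1, 2 and 3, against 84.4, 75.1 and 80.7 FPKM in the diabetic rats 1, 2 and 3. All control libraries lay above all diabetic ones, and control 3 was nearest to them. Its log2 difference was -0.34 with a standard error of 0.10 (adjusted p = 0.150, limma).

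Ndufv1, which binds NADH and the flavin, measured 118.9, 112.0 and 115.4 FPKM in the control rats, against 91.6, 90.9 and 103.4 FPKM in the diabetic rats. Here the control libraries were close together and diabetic 3 was the nearest to them (log2 difference -0.28, standard error 0.08, adjusted p = 0.151, limma). Ndufs7, an iron-sulfur subunit at the quinone site, measured 86.7, 92.2 and 87.6 FPKM in the control rats, against 73.3, 72.2 and 78.9 FPKM in the diabetic rats, again without overlap (-0.25, adjusted p = 0.154, limma). Ndufs3, a subunit of the same quinone-binding part, had 56.1, 55.1 and 44.6 FPKM in control against 42.7, 36.6 and 42.0 FPKM, so that control 3 sat just above diabetic 1 (-0.36, adjusted p = 0.175, limma). Ndufs3 overlaps Kbtbd4 (12.5 FPKM) and Ndufs8 overlaps Unc93b1 (2.49 FPKM) on the opposite strand, and no label says that the counting used strand.

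Ndufv2 and Ndufs1 overlapped between the groups. Ndufv2, the iron-sulfur partner of Ndufv1, had the highest level of the core, with 163.4, 163.0 and 124.0 FPKM in the control rats, against 123.7, 118.3 and 130.4 FPKM in the diabetic rats. Control 3 lay between diabetic 1 and diabetic 3 there, and the log2 difference was -0.26 with a 95% interval from -0.55 to 0.02. Ndufs1, the largest core subunit with several iron-sulfur clusters, was at 69.8, 77.6 and 61.9 FPKM against 69.7, 61.2 and 65.8 FPKM (-0.08, 95% interval from -0.32 to 0.15). With TPM the difference of Ndufs1 was 0.05 and with quantile normalization 0.03, so its sign depended on the scaling. Within the core, levels per length ran from 52.0 ± 6.36 FPKM for Ndufs3 to 150.1 ± 22.6 FPKM for Ndufv2 in control retina (SD, n = 3).

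**Figure D2:**
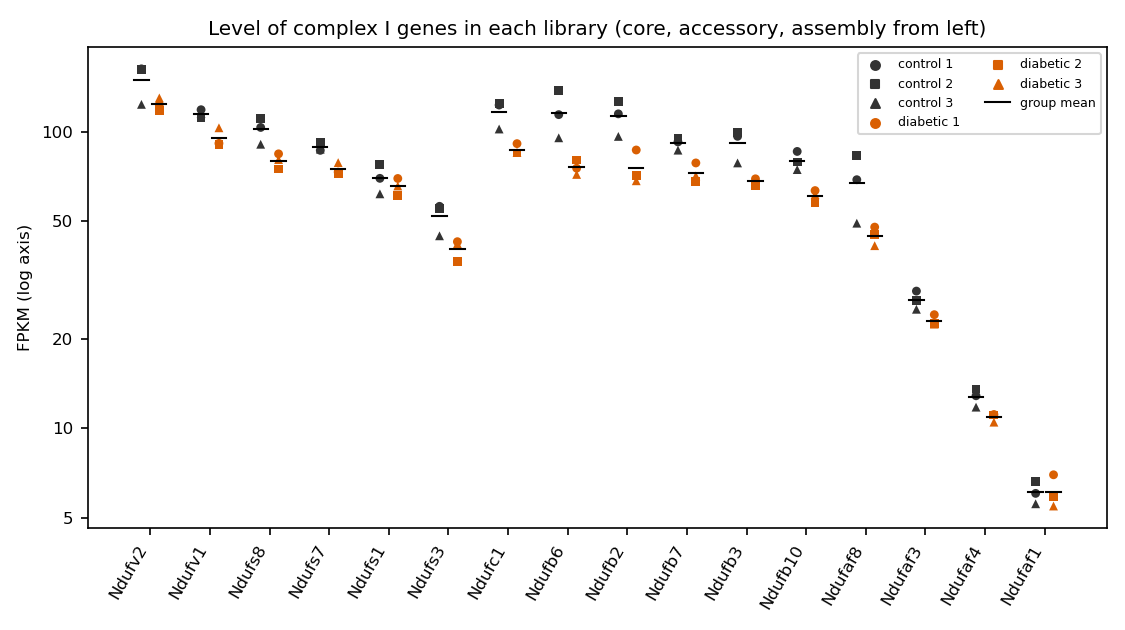
FPKM (y axis, log) of 6 core subunits, accessory subunits and assembly factors with the smallest p, and Ndufaf1, in each of 6 libraries; black bars are group means. Diabetic points of Ndufs8, Ndufv1 and the 6 accessory genes lie below all control points, and control 3 (dark triangle) is often the lowest control.

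The accessory subunits held the largest negative differences. Of 29 tested rows, 28 were negative with a median of -0.36. At an unadjusted p below 0.05, 22 (75.9%) were lower, where 10.7% of all genes tested were. In 20 (69.0%) all diabetic values lay below all control values, where this held for 13.6% of all genes tested. The accessory genes of the membrane arm, the proton-pumping part, had a median of -0.40 over 19 tested rows, of which 16 were lower at an unadjusted p below 0.05. Those of the matrix arm had a median of -0.26 over 9 rows, with 5 lower at that p. Whether the arms differ was not tested. Median gene length was 577 nt in the membrane arm and 560 nt in the matrix arm. After removal of each library's trend on length, the medians were -0.26 in the membrane arm and -0.17 in the matrix arm. At an unadjusted p below 0.05, 13 and 2 rows were then lower, where 9.2% of all genes tested were.

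Ndufb10, a membrane arm subunit that faces the intermembrane space, measured 86.0, 79.2 and 74.7 FPKM in the control rats 1, 2 and 3, against 63.5, 57.9 and 61.4 FPKM in the diabetic rats. The groups were well apart, and its log2 difference of -0.39 had a 95% interval from -0.58 to -0.20 (adjusted p = 0.128, limma). Ndufb6 had the largest negative difference of all Nduf genes, with 114.5, 138.4 and 95.6 FPKM in the control rats, against 75.5, 80.4 and 71.9 FPKM in the diabetic rats. That is 65.4% of the control mean, a log2 difference of -0.59 (standard error 0.13, adjusted p = 0.131, limma). Ndufb6 overlaps Topors, at 15.0 FPKM, on the same strand, and such genes can share reads.

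Ndufb2 came next with 115.2, 126.8 and 96.7 FPKM in control against 87.0, 71.2 and 68.5 FPKM in diabetic libraries (-0.58, adjusted p = 0.131, limma). Ndufc1, a small subunit of the membrane arm, was at 123.3, 124.5 and 102.4 FPKM against 91.4, 85.0 and 85.4 FPKM (-0.41, adjusted p = 0.131, limma). In both genes control 3 was the lowest control library and still above every diabetic one. Ndufb7, with 92.6, 95.5 and 86.9 FPKM against 78.7, 68.1 and 71.1 FPKM, and Ndufb3, with 96.7, 99.4 and 78.7 FPKM against 69.5, 66.2 and 69.1 FPKM, showed the same order (-0.34 and -0.41, adjusted p = 0.137 for both, limma). The remaining membrane arm genes with negative values ranged from -0.48 for Ndufa3 to -0.19 for the row Ndufa10l1 on chromosome 9, a place where RefSeq names the gene Ndufa10.

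In the matrix arm, Ndufa2 (-0.49), Ndufa7 (-0.42), Ndufa5 (-0.42), Ndufa6 (-0.35) and Ndufv3 on chromosome 20 (-0.25) were lower at an unadjusted p below 0.05. Ndufs4, whose loss in mice causes a severe brain disease with features of Leigh syndrome, measured 71.2, 72.2 and 53.8 FPKM in the control rats, against 61.6, 56.6 and 59.2 FPKM in the diabetic rats. Control 3 was the lowest of all 6, and the difference of -0.14 had a 95% interval from -0.43 to 0.15. Ndufa12 (-0.17) and Ndufa9 (-0.20) also overlapped between the groups. Ndufab1, the mitochondrial acyl carrier protein, which sits in both arms and serves in fatty acid synthesis too, had a mean of 30.4 ± 3.07 FPKM in control against 25.3 ± 1.42 FPKM in diabetic rats (SD, n = 3 each, -0.25, adjusted p = 0.214, limma). The second row named Ndufv3, on chromosome 13, is 327 nt long, had a mean of 8.13 FPKM in control and overlaps Klhl12 on the opposite strand; RefSeq names a pseudogene, Ndufv3-ps1, on that chromosome.

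The 8 assembly factors, which help build the enzyme and are not part of it, had a median of -0.22. At an unadjusted p below 0.05, 3 (37.5%) were lower, where 10.7% of all genes tested were. Ndufaf8, the partner of the Ndufs7-modifying enzyme Ndufaf5, measured 69.0, 83.2 and 49.3 FPKM in the control rats, against 47.8, 45.1 and 41.4 FPKM in the diabetic rats (-0.55, adjusted p = 0.180, limma). Control 3 was only just above diabetic 1. Ndufaf3 and Ndufaf4, which act together early in assembly, had means of 27.1 ± 1.91 and 12.8 ± 0.90 FPKM in control against 23.1 ± 0.97 and 10.9 ± 0.36 FPKM in diabetic rats (SD, n = 3 each), with log2 differences of -0.23 and -0.21 (adjusted p = 0.203 and 0.249, limma). Their groups did not overlap.

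Ndufaf1, a factor of membrane arm assembly, measured 6.03, 6.64 and 5.57 FPKM in the control rats, against 6.97, 5.89 and 5.47 FPKM in the diabetic rats. Its log2 difference was 0.00, with a 95% interval from -0.30 to 0.31, and its sign was negative with quantile normalization (-0.06). Ndufaf2, a relative of Ndufa12, had -0.17 with an interval from -0.53 to 0.18. Ndufaf5, Ndufaf6 and Ndufaf7 had -0.28, -0.28 and -0.20 with overlapping groups. Of 12 further assembly factors without the Nduf prefix, 11 were negative with a median of -0.14, and 2 (16.7%) were lower at an unadjusted p below 0.05, Tmem126a (-0.35) and Lyrm2 (-0.39), where 10.7% of all genes were. With TPM 6 of these 12 were negative, as were 5134 of all 16363 genes.

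Ndufa4, now counted as a subunit of cytochrome c oxidase, was the most abundant Nduf gene, with 699.2, 792.8 and 554.4 FPKM in the control rats, against 497.0, 451.1 and 537.8 FPKM in the diabetic rats. The lowest control and the highest diabetic library were close, and the log2 difference was -0.45 (95% interval from -0.80 to -0.10, adjusted p = 0.180, limma). Its relative Ndufa4l2, known as a gene induced by hypoxia, was low, at 0.93, 0.53 and 0.83 FPKM in the control rats against 0.84, 1.31 and 2.24 FPKM in the diabetic rats. The groups overlapped through diabetic 1, and its difference of 0.59 had an interval from -0.13 to 1.31.

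The row Ndufa1, a small subunit of the membrane arm encoded on the X chromosome, varied most of all, and a second row of the table carries the same description. In fragments, Ndufa1 held 3, 3 and 4 in the control rats 1, 2 and 3, against 265, 2 and 3 in the diabetic rats 1, 2 and 3. The row LOC108348144, also on the X chromosome and described in the table as the same subunit, held 234, 4 and 376 in the control rats, against 2, 3 and 2 in the diabetic rats. Each row was thus high only where the other was low, and both were low in control 2, diabetic 2 and diabetic 3. Summed, the rows came to 237, 7 and 380 fragments in the control rats, against 267, 5 and 5 in the diabetic rats, so the groups overlapped. The fitted difference of Ndufa1 (1.44, 95% interval from -2.03 to 4.91) was -0.51 without diabetic 1.

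The subunit Ndufs6, a zinc-binding part of the matrix arm, also has rows outside the Nduf names. In the table its symbol stands on a processed pseudogene that is listed at 0 in 5 libraries, and the rows LOC100912599 and LOC679739 carry its description, both 639 nt long on chromosome 1. LOC100912599 held 66, 293 and 23 fragments in the control rats, against 24, 188 and 14 in the diabetic rats. LOC679739, which RefSeq names Ndufs6, held 5, 8 and 8 in the control rats, against 3, 10 and 171 in the diabetic rats. Only diabetic 3 had more fragments in the second row than in the first, and the sums, 71, 301 and 31 against 27, 198 and 185, overlapped. RefSeq lists 49 Nduf pseudogenes in the rat, and no label says how reads with several matches were counted, so the levels of these 2 subunits are uncertain. Another such row, LOC100361934, described as subunit B4, had between 34 and 54 fragments in every library, and the level of Ndufb4 is uncertain by what the rows share.

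**Figure D3:**
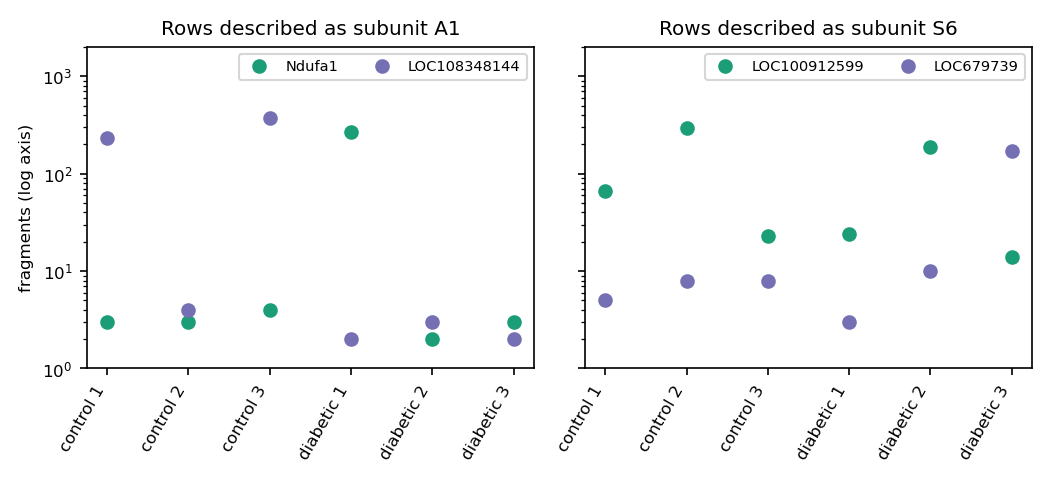
Rebuilt fragments (y axis, log) in each library for the rows described as subunit A1 (left) and as subunit S6 (right). Each colour is a row; Ndufa1 is high only in diabetic 1 and LOC108348144 only in control 1 and control 3.

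The libraries differed in the Nduf genes as a set. The median deviation of the 46 tested rows from the control mean was 0.04, 0.15 and -0.20 in the control rats 1, 2 and 3, against -0.27, -0.42 and -0.33 in the diabetic rats 1, 2 and 3. Control 2 was the highest of the 6 libraries in 33 rows, and control 3 the lowest control in 38. Control 3 therefore lay between the groups, and it is also the library with the highest sum of lens markers; their part in its values was not tested. Without control 3 the median log2 difference was -0.42 and 36 of 46 rows were lower at an unadjusted p below 0.05, where 13.0% of all genes tested were. Without control 2 the median was -0.24 with 16 such rows, where 7.01% of all genes were lower, and without diabetic 2 it was -0.30 with 15 rows, where 6.96% were. The sum of the photoreceptor markers did not overlap between the groups either, though Crx did, and their part in the Nduf values was not tested. In RNA of whole retinas, fewer cells of a type and less RNA per cell cannot be told apart.

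**Figure D4:**
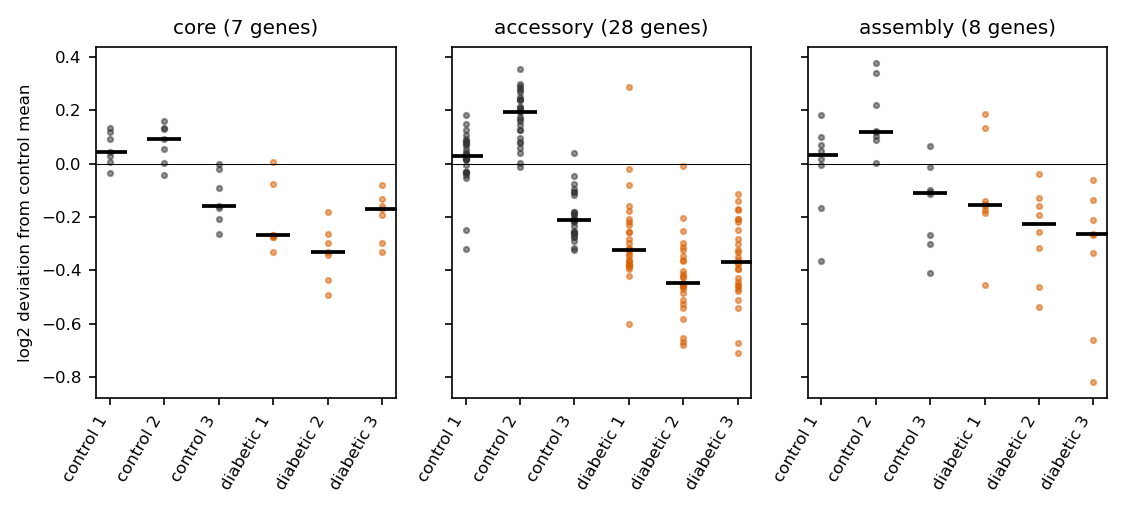
Log2 deviation from the control mean (y axis) in each library for 7 core, 28 accessory and 8 assembly genes (points), with the median as a bar; Ndufa1, Ndufa4 and Ndufa4l2 are left out. The median of control 3 lies below those of the other control libraries in all 3 panels and the diabetic medians lie lower still.

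Gene length and level varied with these differences. The Nduf genes are short, with a median length of 817 nt against 2100 nt over all genes tested. Among the 45 rows without Ndufa1, the log2 difference was the more negative the shorter the gene (Spearman correlation 0.71, Pearson correlation 0.50 with log10 length) and the higher its mean level (Spearman correlation -0.53). These correlations are across genes of the same libraries and describe them only. The 12 Nduf genes longer than 400 and up to 600 nt had a median of -0.41, and 576 other genes of that length had -0.16. Up to 400 nt, 4 Nduf genes had -0.34 and 1577 others 0.03. Ndufa1 (1.44) is counted among these 4, and the 3 other rows were negative. For lengths above 1200 and up to 2000 nt the medians were -0.19 for 8 Nduf genes and -0.08 for 3569 others. By level, the 15 Nduf genes at 100 FPKM or more had -0.35 and all were negative. The 684 other genes of that level had -0.21, and 82.0% of them were negative. From 50 to below 100 FPKM, 16 Nduf genes, all negative, had -0.41 and 992 others -0.12, with 70.0% of the others negative. From 20 to below 50 FPKM, 6 Nduf genes, all negative, had -0.25 and 3014 others -0.06, with 63.0% of the others negative.

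After removal of each library's trend on length, 43 of the 46 rows were negative with a median of -0.20. At an unadjusted p below 0.05, 22 (47.8%) were lower and 0 higher, where 9.2% of all genes tested were lower and 8.17% higher. Their smallest adjusted p was then 0.146 (limma). The core median became -0.13, the accessory median -0.24 and the assembly median -0.17. With TPM, which moved the median of all genes by 0.13 on the log2 scale, 42 rows were negative and 16 were lower and 0 higher at an unadjusted p below 0.05. Of all genes tested, 692 (4.23%) were then lower and 3009 (18.4%) higher, against 1757 and 1498 before. With quantile normalization 16 rows were lower and 0 higher, where 8.71% of all genes were lower and 9.43% higher. Rows whose diabetic values all lay below numbered 13 with TPM, where 5.6% of all genes did, and 17 with quantile normalization, where 11.9% did.

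**Figure D5:**
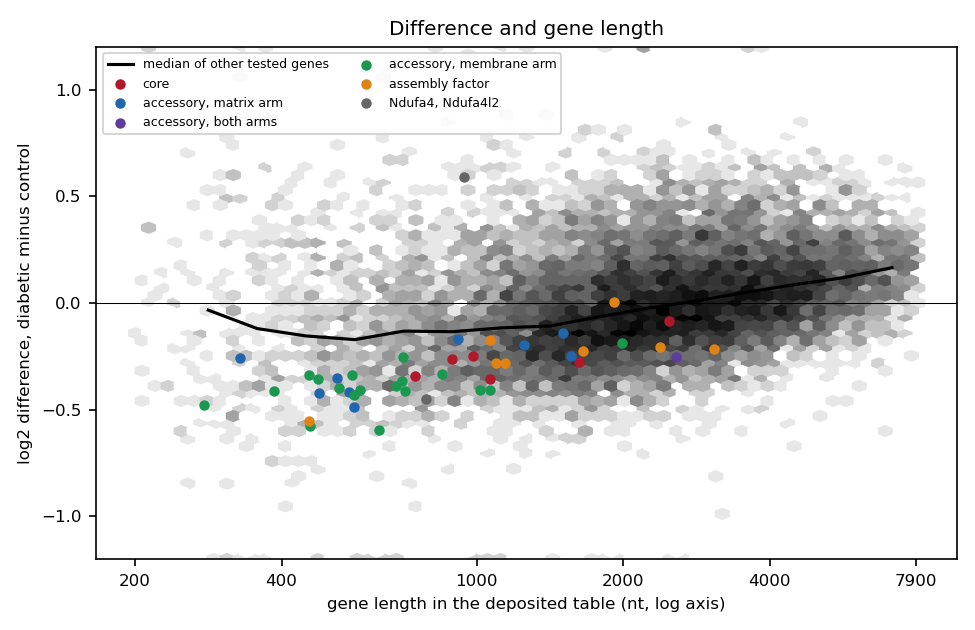
Log2 difference (y axis) against gene length (x axis, log) for all tested genes (grey density, values beyond the axis drawn at its edge), with the running median of genes other than Nduf (line) and Nduf genes coloured by group, without Ndufa1 and 1 gene not reported here. Most Nduf points lie below the line; the median of other genes is -0.16 from above 400 to 600 nt and 0.10 above 3200 nt.

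Other genes of the pathway were set beside these. The nuclear subunits of complexes II to V had 44 of 45 tested genes negative and a median of -0.36. At an unadjusted p below 0.05, 30 (66.7%) were lower, where 10.7% of all genes tested were. The 7 complex I subunits encoded in mitochondrial DNA had another pattern: 5 had positive and 2 negative differences, the median was 0.16, and 0 reached an unadjusted p of 0.05. Mt-nd5, a proton-pumping core subunit, measured 534.1, 847.9 and 1022 FPKM in the control rats, against 932.9, 1025 and 1171 FPKM in the diabetic rats, a difference of 0.42 with an interval from -0.13 to 0.98. Control 1 was the lowest and control 3 overlapped the diabetic libraries. Of the 7, Mt-nd3 alone (14.3%) had all diabetic values below all control values, near the 13.6% of all genes tested. It measured 1542, 1541 and 1239 FPKM in control against 1220, 1165 and 1191 FPKM in diabetic libraries (-0.27, adjusted p = 0.288, limma). A test of nuclear against mitochondrial subunits was not made.

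Among 11 regulators of nuclear respiratory genes, 2 were lower and 3 higher at an unadjusted p below 0.05, where 10.7% of all genes tested were lower and 9.15% higher, and 0 passed over all genes. Ppargc1a, the coactivator that drives mitochondrial biogenesis, measured 7.48, 9.49 and 12.1 FPKM in the control rats, against 14.8, 15.6 and 15.2 FPKM in the diabetic rats. The diabetic libraries were close together and above every control library (log2 difference 0.65, standard error 0.16, adjusted p = 0.139, limma). Its relative Ppargc1b had 0.41 and Tfb1m, a methyltransferase of mitochondrial ribosomal RNA, had 0.24. Tfb2m, a transcription factor of mitochondrial DNA, was lower, with a mean of 15.5 ± 1.62 FPKM in control against 11.9 ± 0.87 FPKM (SD, n = 3 each, -0.37, adjusted p = 0.158, limma). The nuclear receptor gene Esrra had -0.19, while Nrf1 (0.14) and Gabpa (0.14) overlapped between the groups. Of the 11 regulators 5 were negative, and 2 with TPM, while over all genes 8171 were negative and 5134 with TPM.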

How the data were processed

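The authors deposited FPKM for 34170 genes in 6 retinal libraries, with gene length and biotype, per the file headers. HISAT2 2.0.5 served as aligner, per the submitters' processing notes, with counter, build and annotation not given in the sources used here. FPKM times gene length gave whole fragments (100% of values within 0.05). The 16363 genes whose mean reached 0.5 FPKM entered limma 3.58.1 (R 4.3.3) as log2(FPKM + 0.5) (group as the only term, intensity trend, two-sided, Benjamini-Hochberg over all of them, threshold 0.05). The scale understates changes of low genes. On simulated data the test recovered 8.96% of 67 genes changed 1.5-fold, 49.3% of 67 changed 2-fold and 97.0% of 66 changed 4-fold. The simulated spread was a fixed value and not that of these rats. A count of 0 past the threshold therefore does not show that small changes are absent. Named genes were the core, the accessory (6) and assembly (3) genes of smallest p, the 2 of highest difference in each, members varying over 4-fold within a group, Ndufa4 and Ndufa4l2, and related genes below an unadjusted p of 0.05; others were chosen after values were seen. Members and lists were chosen with earlier results of these data known. Of 47 rows, 7 overlap a gene of at least 1 FPKM. Every pair of libraries differed beyond sampling noise (chi-square over its degrees of freedom at least 10.7). Alternatives were other pseudocounts, filters and scalings, length trend removal by lowess, voom on rebuilt fragments with TMM scaling, a fit of protein-coding genes, the replicate number as a term, and each library left out. Each library is 1 rat by its labelled weight. Sequences are from RefSeq (GRCr8). RNA methylation was not analysed here, and 1 member and 1 marker gene are not reported by name, though counts and medians over the rows include the member. Figures were drawn with matplotlib.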

Additional observations from a re-analysis of the deposited data

How the results depend on the processing

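The count of Nduf genes past the adjusted threshold was 0 under every alternative run, and their median log2 difference stayed negative, between -0.42 and -0.20; leaving out 1 library it ranged from -0.42 to -0.24. The count of all genes called was 2 with voom and between 0 and 4 (without diabetic 1) when 1 library was left out. The count of Nduf genes lower at an unadjusted p below 0.05 was 16 with TPM and 16 with quantile normalization. When 1 library was left out, that count lay between 15 (without diabetic 2) and 36 (without control 3). The count without overlap was 13 with TPM and 17 with quantile normalization. It lay between 28 and 39 when 1 library was left out, where fewer values make a lack of overlap easier to reach. These last counts cannot be set against those from all libraries, and the matching share of all genes was not counted. Signs turned for Ndufs1 with TPM (0.0521) and quantile normalization (0.0308) and for Ndufaf1 with quantile normalization (-0.0585). With 1 library left out, Ndufaf1 lay between -0.0886 and 0.0734 and Ndufa1 between -0.51 (without diabetic 1) and 2.47 (without diabetic 2); the cause was not tested. Replicate numbers do not pair the rats (same-numbered deviations correlate at -0.05, -0.08 and 0.00). With the replicate block, 27 Nduf genes were lower at an unadjusted p below 0.05, where 9.15% of all genes tested were. Their median was -0.33 and 0 passed. At these depths the value of a gene near 3 fragments, such as Ndufa1 in 5 libraries, is set by few reads.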
